A study of Mus musculus with 29 samples.

Results

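The genes described here are 10 carboxylesterases of the Ces1 and Ces2 families (Ces1c, Ces1d, Ces1e, Ces1f, Ces1g, Ces2a, Ces2b, Ces2c, Ces2e and Ces2g), taken by name from the 55421 genes of the count table. They were chosen by name on their levels in these same mice, in CPM (each gene's share of a library's counts, scaled to a fixed total), which were already known, so their levels and differences between groups are a description, and the adjusted p-values over all genes say where each gene stands in that fit. The table also lists 10 other carboxylesterase genes, which are given for comparison. All 10 members had at least 1 read in some mouse, and 9 of 10 passed the filter on low counts in every comparison, Ces2b being the exception.

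Whole liver was taken from male and female C57BL6 mice treated with HDM201, an inhibitor of MDM2 that keeps p53 from being degraded, given by mouth once a day for 14 days at 10 mg/kg, or its methylcellulose vehicle. Old mice (20 months for females and 24 months for males by the labels, C57BL/6J) received either HDM201 or vehicle. Young mice (5 months by the labels, C57BL6/N) received vehicle, so that age and substrain cannot be told apart in any old against young comparison. The substrains are those the paper gives for its first cohort. The ages it states there for old females and for young mice differ slightly from the labels. Counts covered 27 of 29 mice: 5 young vehicle, 4 old vehicle and 5 old HDM201 females, and 4 young vehicle, 4 old vehicle and 5 old HDM201 males. Total counts ran from 16485900 to 23570458 per mouse. For the remaining pair of males (old vehicle male 1 and young vehicle male 5), FPKM values were used. The paper left a young male of its first cohort out of its data analysis for an open wound and suspected infection. It does not say which mouse this was, so young vehicle male 5 may be that animal.

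Carboxylesterases are serine hydrolases of the endoplasmic reticulum that split ester and amide bonds. In liver they activate or clear ester drugs and toxicants, and several of them hydrolyse stored triacylglycerol, cholesteryl ester or retinyl ester, which links them to lipid droplets and to the loading of very low density lipoprotein (VLDL). The mouse has many more Ces1 and Ces2 genes than the human, the result of tandem duplication, and hepatocytes are their main source in liver.

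All 10 members lie on chromosome 8 in a pair of clusters (mm10, which is GRCm38; GENCODE vM21 positions). The Ces1 members are on the minus strand between 93099015, the end of Ces1c, and 93337308, the start of Ces1g. The Ces2 members are on the plus strand between 104734003, the start of Ces2a, and 104969537, the end of Ces2g. Members of a cluster share sequence, so short reads from shared stretches cannot be assigned to a single gene with certainty. Of all 50-base stretches in the exons of Ces2c, 36.1% also occurred in exons of another gene, chiefly the pseudogene Ces2d-ps, and values for Ces2c are therefore uncertain. The share was 17.3% for Ces2a (chiefly with Gm7208), 13% for Ces1c (chiefly with Ces1b), 9.66% for Ces2b, and between 0.90% and 3.30% for the other 6 members.

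To show how alike the Ces2 genes are where transcription starts, the 250 bases before the RefSeq start of the 4 Ces2 members with a promoter entry and a level above the filter are given below, 5′ to 3′ on the plus strand of GRCm38.p6. The capitals mark ACTTTG, the reverse complement of CAAAGT, a 6-base string of the kind found in binding sites of HNF4A, a nuclear receptor of hepatocytes. The string was chosen after the sequences had been seen.
Ces2a, chr8:104733753-104734002: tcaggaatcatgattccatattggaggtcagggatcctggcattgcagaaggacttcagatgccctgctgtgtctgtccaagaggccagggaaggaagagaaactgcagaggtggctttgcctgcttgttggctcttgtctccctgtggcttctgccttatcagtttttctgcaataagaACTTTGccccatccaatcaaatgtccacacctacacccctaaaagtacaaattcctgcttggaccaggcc
Ces2c, chr8:104846818-104847067: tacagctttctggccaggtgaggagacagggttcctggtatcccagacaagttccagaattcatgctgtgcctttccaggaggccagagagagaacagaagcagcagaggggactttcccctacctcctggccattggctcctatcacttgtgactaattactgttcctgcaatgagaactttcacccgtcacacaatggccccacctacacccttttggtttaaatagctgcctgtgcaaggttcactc
Ces2e, chr8:104926010-104926259: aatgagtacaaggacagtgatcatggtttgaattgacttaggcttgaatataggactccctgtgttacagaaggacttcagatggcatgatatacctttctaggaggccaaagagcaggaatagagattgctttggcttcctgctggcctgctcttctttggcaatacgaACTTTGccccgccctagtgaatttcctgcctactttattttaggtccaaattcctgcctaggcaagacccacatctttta
Ces2g, chr8:104961468-104961717: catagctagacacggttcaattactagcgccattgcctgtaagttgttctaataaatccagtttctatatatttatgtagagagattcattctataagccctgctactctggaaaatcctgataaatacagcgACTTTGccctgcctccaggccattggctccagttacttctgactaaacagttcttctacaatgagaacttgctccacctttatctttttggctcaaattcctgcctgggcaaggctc

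CAAAGT on either strand was found in the upstream windows of Ces2a, Ces2e and Ces2g, beginning 70, 80 and 117 bases before the start, and not in that of Ces2c. Among all 32851 mouse promoter windows of the same length, 12.6% (4123 windows) held it. Of the 7 members with a promoter entry 3 held it, since the windows of Ces1c, Ces1e and Ces1g did not. In the window of Ces1g, 99 of the 250 bases lay in an exon. As the string was chosen after the sequences had been seen, the count is no test against the share of all windows. Ces2a, Ces2e and Ces2g also shared an 11-base run close to the start, CAAATTCCTGC, and Ces2a and Ces2e shared a 17-base run further upstream, CAGAAGGACTTCAGATG. A p53 half-site (either strand) lay in the window of Ces2c and of Ces2g, against 7.13% of all windows. It was not in those of Ces2a, Ces2e, Ces1c, Ces1e and Ces1g. The full p53 site (a pair of half-sites with a spacer of 0 to 13 bases) was in none of the 7 windows. These are matches of letters and no measure of binding. Promoter entries were matched for 7 of the 10 members. Ces1d, Ces1f and Ces2b had none.

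The Ces1 members made up most of the carboxylesterase RNA in every group. To compare genes, CPM was divided by the exon length in kb. Ces1c, which encodes the carboxylesterase of mouse plasma, was the highest member in all 6 groups, from 1011 ± 84.2 CPM per kb (SD, n = 5) in old HDM201 males to 1845 ± 137 (n = 5) in old HDM201 females. It was the 30th most abundant gene of the table by median CPM, before dividing by length. Ces1d, the triacylglycerol hydrolase that mobilises stored fat for VLDL, came second in all 6 groups, between 291 ± 160 (n = 5) in old HDM201 males and 518 ± 89.0 (n = 4) in old vehicle females. Both together took most of the summed level of the 5 Ces1 members, with Ces1c alone at 63.4% ± 5.07 (n = 4) in old vehicle males to 72.6% ± 2.75 (n = 5) in old HDM201 females.

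Ces2a led the Ces2 members in 5 of the 6 groups, between 133 ± 42.1 CPM per kb (n = 5) in old HDM201 males and 188 ± 24.8 (n = 4) in young vehicle males. Ces2a has lipid esterase activity in liver. In old HDM201 females Ces2e, known as a pyrethroid hydrolase, stood at 168 ± 30.9 (n = 5) and Ces2a at 143 ± 23.2 (n = 5), a gap within the SDs. Among the middle members Ces1f, Ces1g and Ces2a, the order changed between the groups: in young vehicle females they were at 126 ± 12.1, 145 ± 12.8 and 172 ± 8.04 (n = 5 each), and in young vehicle males at 153 ± 19.4, 74.1 ± 31.2 and 188 ± 24.8 (n = 4 each). Ces2g, at 11.4 to 21.0 CPM per kb as a group mean, and Ces2c, at 5.20 to 12.2, were the lowest of the 9 members that passed the filter. The 10 members together took between 0.383% and 0.731% of all counts of a mouse.

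**Figure D1:**
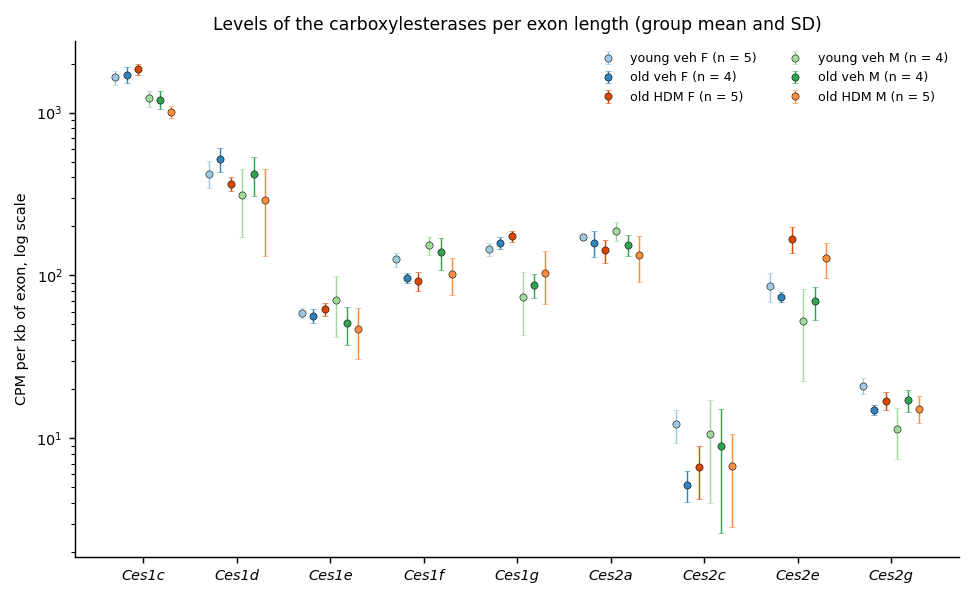
Group mean and SD (error bars) of CPM per kb of exon for the 9 carboxylesterases that passed the count filter, on a log axis, in young vehicle (veh), old vehicle and old HDM201 (HDM) females (F) and males (M). Ces1c is the highest in all 6 groups (group means of 1011 to 1845) and Ces2c the lowest (5.20 to 12.2).

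Ces2b was near the floor. It had 55 counts over all 27 mice and 0 in 13 of them, the highest mouse having 16. Young vehicle females held 18 of these counts and old vehicle females 1, a ratio of 14.4 after scaling by total counts (95% exact binomial interval 2.27 to 599, which covers counting error only). In males young mice held 8 counts and old vehicle mice 19. Ces2b passed the count filter in no comparison and is left out of what follows. Without the filter it was the 1 member added to the calls for age in females (edgeR).

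The first question was how the carboxylesterases of old liver differed after MDM2 inhibition. In old females 1 of the 9 tested members was higher after HDM201 (Ces2e) and 1 was lower (Ces1d), and 7 did not pass the threshold (edgeR quasi-likelihood test, FDR under 0.05 over all genes). Over all 14445 genes tested, 5.25% passed (2.35% higher and 2.90% lower). The median log2 fold change of the 9 members was 0.11 and that of all genes 0.00.

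Ces2e (ENSMUSG00000031886.14) stood at 203, 180.4, 214 and 199 CPM in the 4 old vehicle females and at 597, 395, 407, 452 and 411 CPM in the 5 old HDM201 females. All 5 treated females were above all 4 vehicle females, and treated female 1 was the highest of all mice. The means were 452 ± 83.5 CPM (SD, n = 5) and 199 ± 14.1 (n = 4), a fold of 2.24 (log2 fold change 1.16 ± 0.12 SE, edgeR FDR = 0.00239). Without treated female 1 the log2 fold change was 1.04 (edgeR FDR = 0.000415).

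Ces1d (ENSMUSG00000056973.6) moved the other way. It was at 1093, 1505, 1037 and 1273 CPM in old vehicle females and at 749, 917, 884, 803 and 958 CPM in old HDM201 females, again with no overlap between the groups. The means were 862 ± 85.0 CPM (n = 5) with HDM201 and 1227 ± 211 (n = 4) with vehicle (log2 fold change -0.53 ± 0.12 SE, edgeR FDR = 0.0265). This call depended on single mice: the FDR was 0.0759 without vehicle female 2 (the highest mouse, log2 fold change -0.42), 0.0721 without vehicle female 4, 0.0550 without treated female 3 and 0.0653 without treated female 4. It was 0.373 when all 6 groups shared 1 estimate of the spread, and 0.0539 by limma on log2(FPKM + 1).

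Ces2e and Ces1d were the 2 members of 9 whose groups did not overlap in old females, against 10.2% of all genes tested. The other members differed by less. Ces1c, Ces1e, Ces1g and Ces2g had log2 fold changes of 0.09 to 0.17, with FDRs of 0.322 to 0.620. Ces1f (-0.08 ± 0.10 SE) and Ces2a (-0.17 ± 0.13) were slightly below vehicle on average. Ces2c, a triacylglycerol lipase, was at 0.32 ± 0.23, with 11.95 ± 2.594 CPM (n = 4) in vehicle and 15.2 ± 5.48 (n = 5) in HDM201 females.

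In old males none of the 9 members passed (edgeR). At an unadjusted p under 0.05 there were 2, against 12.1% of all genes. DESeq2 called 1 (Ces2e), against 1.21% of all genes, and limma on FPKM called 0. Of all 14109 genes tested in males, 0.00709% passed (1 gene). Ces2e was at 130.1, 179, 213 and 228 CPM in the 4 old vehicle males with counts and at 368, 443, 380.3, 307 and 223 CPM in the 5 old HDM201 males. All but treated male 5 lay above the highest vehicle male. The means were 344 ± 83.2 (n = 5) and 188 ± 43.3 (n = 4), and Ces2e differed by 0.88 ± 0.20 SE on the log2 scale (edgeR FDR = 0.205, DESeq2 FDR = 0.00770, range over the 17 alternatives 0.00770 to 0.563).

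Ces1d in old males was at 1017, 727, 882 and 1355 CPM with vehicle and at 877, 1240, 638, 331 and 365 CPM with HDM201, so that the groups overlapped widely. The log2 fold change was -0.52 ± 0.36 SE (edgeR FDR = 0.569). Ces1c (-0.24 ± 0.12 SE) and Ces1f (-0.44 ± 0.20) were lower on average and did not pass. No member had groups without overlap in old males, against 4.03% of all genes tested.

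The difference between the sexes in the response to HDM201 was tested itself. None of the 9 members passed (edgeR), and 1 had an unadjusted p under 0.05, against 18.5% of all genes. DESeq2 called 0 members, against 4.55% of all genes, and limma on FPKM called 0. Of all 14974 genes tested, 0.107% passed (0.0735% with a higher and 0.0334% with a lower value in females). For Ces2e the female response was higher than the male one by 0.29 ± 0.25 SE on the log2 scale (edgeR FDR = 0.583), with an interval of -0.21 to 0.79 (95%, from the SE).

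**Figure D2:**
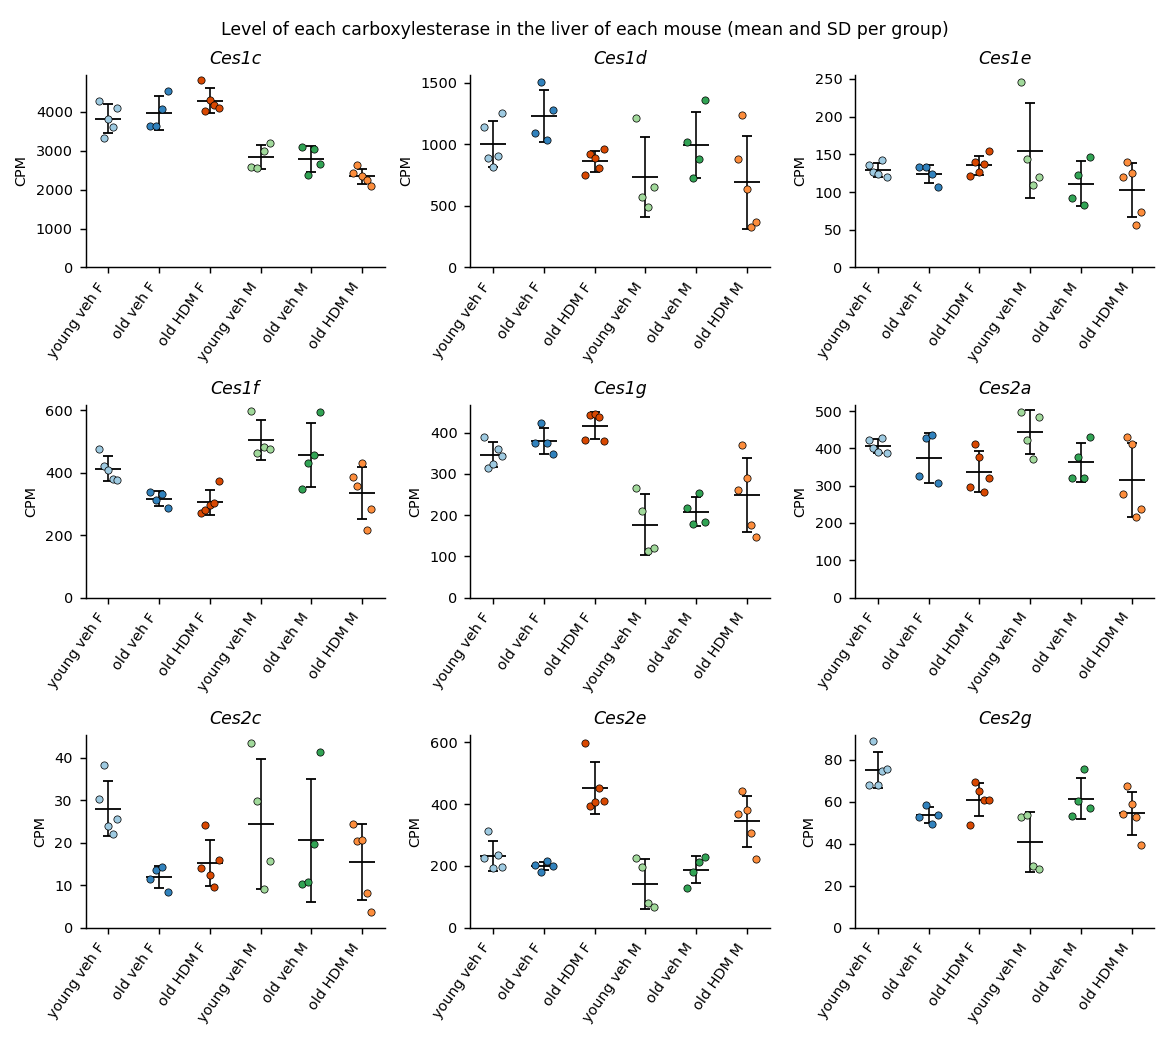
CPM (vertical axis, from 0) of the 9 carboxylesterases in each of the 27 mice with counts, by group (veh, vehicle; HDM, HDM201; F, female; M, male); points are mice, horizontal lines the group mean and error bars the SD. Ces2e was at 395 to 597 in old HDM201 females and 180.4 to 214 in old vehicle females.

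Since both Ces2 genes are read in the same library, their ratio within a mouse does not depend on the scaling of libraries. Ces2e over Ces2a, per kb, was 0.478 ± 0.0946 (range 0.369 to 0.568, n = 4) in old vehicle females and 1.21 ± 0.373 (0.839 to 1.76, n = 5) in old HDM201 females. In males it was 0.452 ± 0.0946 (0.354 to 0.577, n = 4) with vehicle and 0.984 ± 0.198 (0.808 to 1.24, n = 5) with HDM201. Among the mice with counts, the ratio was thus without overlap between treated and vehicle mice in both sexes. This included treated male 5, whose Ces2e alone lay within the vehicle range. Old vehicle male 1, which has FPKM only, was at 81.8 scaled FPKM for Ces2e and 87.8 for Ces2a. Its Ces2e was thus nearly level with its Ces2a, so the separation in males rests on the 4 vehicle males with counts. Young vehicle mice had ratios of 0.433 to 0.679 in females (n = 5) and 0.119 to 0.408 in males (n = 4). These ratios were looked at after the levels were known and were not tested.

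As a share of the summed level of the 5 Ces2 members, Ces2e took 29.5% ± 3.93 (n = 4) in old vehicle and 50.1% ± 7.40 (n = 5) in old HDM201 females, and 27.7% ± 3.53 (n = 4) and 45.4% ± 4.14 (n = 5) in males. The summed level of the Ces2 members was 252 ± 29.4 CPM per kb (n = 4) in old vehicle and 334 ± 24.8 (n = 5) in old HDM201 females. The sum of the Ces1 members was 2541 ± 174 (n = 4) and 2539 ± 94.6 (n = 5). In males the Ces2 sums were 249.5 ± 39.9 (n = 4) and 283 ± 75.4 (n = 5), and the Ces1 sums 1900.0 ± 206 (n = 4) and 1555 ± 309 (n = 5), with vehicle and HDM201. Ces1d over Ces1c ranged from 0.249 to 0.407 in old vehicle and from 0.152 to 0.229 in old HDM201 females. In males the ranges overlapped, 0.284 to 0.502 with vehicle and 0.145 to 0.463 with HDM201.

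**Figure D3:**
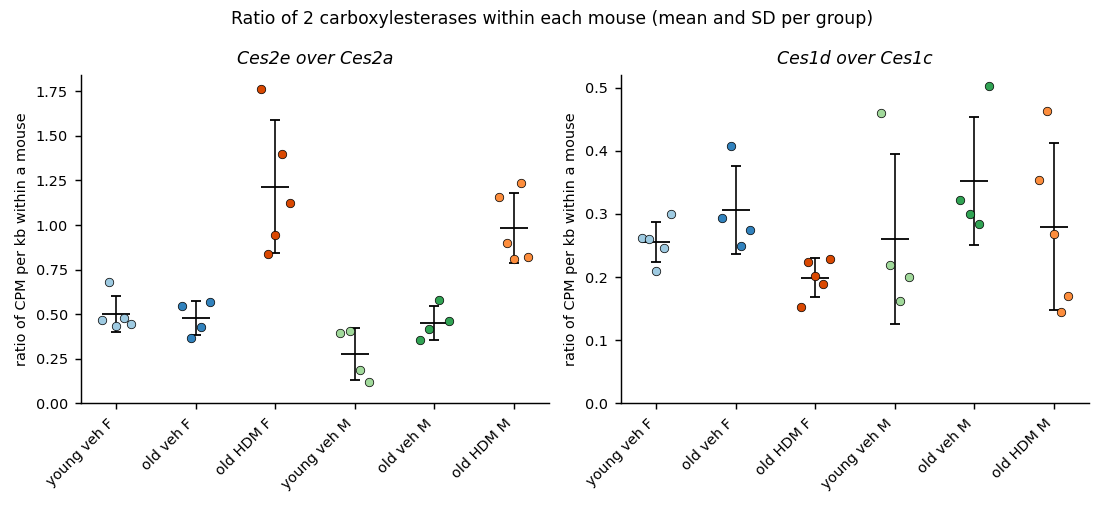
Ratio of CPM per kb within each mouse (vertical axes, from 0) for Ces2e over Ces2a and for Ces1d over Ces1c, by group; points are mice, lines and error bars the mean and SD. Only mice with counts are shown. For Ces2e over Ces2a, old HDM201 mice sit at 0.808 to 1.76 and old vehicle mice of both sexes at 0.354 to 0.577.

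Carboxylesterases outside the members were compared in the same way. Ces1b, Ces3a and Ces3b, the other carboxylesterase genes that passed the filter in old females, had log2 fold changes of 0.10 ± 0.13, -0.11 ± 0.25 and -0.10 ± 0.14 SE with HDM201, and none passed. Genes next to the clusters were also measured. None of the tested genes inside the clusters (Gm45909, Gm45727 and Gm8798) or of the protein-coding genes near their edges (Irx3, Mmp2, Lpcat2, Gnao1, Nudt21, Car7, Pdp2, Ciao2b, Cbfb, D230025D16Rik and B3gnt9) passed in old females, with log2 fold changes from -0.67 (Lpcat2) to 0.77 (Gm8798). Gm45724, beyond Ces2g and within the span of Ces3a, was not tested for HDM201 or for age in females.

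Genes of the pathways around the carboxylesterases were counted against the 5.25% of all genes that passed with HDM201 in old females. Of 15 other lipid hydrolases tested, 2 were higher and none lower: Pnpla7, a lysophospholipase, rose by a log2 fold change of 0.59 ± 0.09 SE (edgeR FDR = 0.00830), and Pnpla8, a calcium-independent phospholipase, by 0.34 ± 0.08 (FDR = 0.0386). Of 12 genes of VLDL assembly, 1 was higher, Apoa4, an apolipoprotein of triacylglycerol-rich particles, at 1.38 ± 0.32 SE (FDR = 0.0334). None of 11 lipid droplet genes, 13 other drug hydrolases or 19 target genes of the xenobiotic receptors CAR and PXR passed by edgeR. Of 7 genes of retention in the endoplasmic reticulum, 1 was higher, the chaperone Calr (0.43 ± 0.11 SE, FDR = 0.0470), and of 21 nuclear regulators 1 was lower, Hnf4a (-0.27 ± 0.06 SE, FDR = 0.0320).

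The medians of these 7 lists lay between -0.08 and 0.19, with that of all genes at 0.00. As a check of the drug, Mdm2 itself, a p53 target, was at 25.4 to 27.7 CPM in old vehicle and 29.9 to 38.2 CPM in old HDM201 females (log2 fold change 0.33 ± 0.08 SE, edgeR FDR = 0.0350). In old males it did not differ detectably (0.00 ± 0.08 SE, FDR = 0.998). Cdkn1a, the p21 gene, did not pass in either sex, nor did Trp53. Of the 8 p53 check genes, 1 passed in old females and 0 in old males (edgeR). Their median log2 fold change was 0.37 in old females and 0.22 in old males. Their summed level was 111 to 132 CPM (mean 120) in old vehicle males and 128 to 192 CPM (mean 155) in old HDM201 males. In old females it was 121 to 135 CPM (mean 126) with vehicle and 126 to 248 CPM (mean 158) with HDM201. The paper reports significantly higher p53 and p21 protein by western blot in mice given HDM201. For female liver RNA it reports a trend to higher levels in part of a longer list of p53 targets, significant for some of them.

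Cell type and sex-bias lists were set against the shares of all genes that passed with HDM201 in old females (2.35% higher and 2.90% lower). Of 12 macrophage markers 11 were lower with HDM201 (median log2 fold change -1.05), among them Timd4 (-1.72 ± 0.34 SE), Csf1r (-1.18 ± 0.20) and Cd5l (-1.16 ± 0.20). Their summed level was 533 to 1093 CPM in old vehicle and 328 to 530.1 CPM in old HDM201 females, and no marker was at 0. In old males none of the 12 passed (edgeR). Lymphocyte markers were lower in 2 of 12, and cholangiocyte markers higher in 2 of 7. Of 12 hepatocyte markers, 1 was lower (Hnf4a) and none higher, with a summed level of 107797 to 135834 CPM in vehicle and 113587 to 150745 CPM in HDM201 females. None of 12 pericentral or 12 periportal markers passed, 1 of 12 stellate and endothelial markers was lower, and none of 2 adipose and pancreas markers passed. Of genes known for sex bias in liver, 1 of 10 male-biased genes was lower (C6) and 1 of 16 female-biased genes was higher (Abcd2). In old males no gene of any of these lists passed (edgeR). Fewer cells of a type and less RNA per cell cannot be told apart in RNA of whole tissue. By flow cytometry, the paper reports that HDM201 reversed the rise of macrophages and dendritic cells with age in liver. The part of cell composition in the differences of Ces2e and Ces1d was not tested.

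The second question was age, which here goes with substrain. In females 3 of the 9 members (Ces1f, Ces2c and Ces2g) had lower levels in the old vehicle mice, none was higher, and 6 did not pass. Over all 14233 genes tested, 31.8% passed (15% lower and 16.8% higher). The median log2 fold change of the 9 members was -0.10 and that of all genes 0.01.

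Ces2c (ENSMUSG00000061825.10) was at 30.3, 38.1, 23.9, 22.1 and 25.6 CPM in young females and at 11.5, 13.6, 14.2 and 8.48 CPM in old vehicle females. The lowest young female was above the highest old one. The means were 28.0 ± 6.42 (n = 5) and 11.95 ± 2.594 (n = 4), 2.31-fold higher in young mice (log2 fold change -1.21 ± 0.18 SE, edgeR FDR = 0.000505). Ces2g (ENSMUSG00000031877.9) was at 68.1, 88.6, 68.0, 74.7 and 75.6 CPM in young females and 52.9, 58.4, 49.3 and 53.6 CPM in old vehicle females, also without overlap. It differed by -0.46 ± 0.09 SE on the log2 scale (edgeR FDR = 0.00270).

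Ces1f (ENSMUSG00000031725.8), a microsomal triacylglycerol hydrolase, stood at 476, 421, 407, 380.4 and 377 CPM in young and 338, 312, 331 and 286 CPM in old vehicle females. The means of 412 ± 39.9 (n = 5) and 317 ± 23.3 (n = 4) differed by a log2 fold change of -0.36 ± 0.09 SE (edgeR FDR = 0.0100), and the FDR was 0.0663 when all 6 groups shared 1 fit. These 3 of 9 members had groups without overlap, against 25.9% of all genes tested. Ces1d was the member with the highest log2 fold change, 0.32 ± 0.15 SE (edgeR FDR = 0.117), and passed only without young female 5 (FDR = 0.0459) among the 17 alternatives. Ces2e was at 193 to 312 CPM in young and 180.4 to 214 CPM in old vehicle females (-0.20 ± 0.13 SE on the log2 scale, FDR = 0.252).

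The other carboxylesterases that were tested in females were all lower in old mice. Ces3b fell most, from 287 to 483 CPM in young to 109.8 to 128 CPM in old vehicle females (log2 fold change -1.67 ± 0.14 SE, edgeR FDR = 1.52e-05). Ces3a fell by 1.14 on the log2 scale (FDR = 0.00240) and Ces1b by 0.64 (FDR = 0.00336). Ces3a and Ces3b, whose products are liver carboxylesterases of the neighbouring Ces3 group, share 25.6% and 26.2% of their 50-base stretches with each other. Of the genes inside and around the clusters, Mmp2 (1.02 ± 0.22 SE) and Lpcat2 (1.41 ± 0.22 SE) beside Ces1 were higher in old females, and Gm45909, Irx3, Pdp2, Ciao2b and D230025D16Rik were lower, with log2 fold changes of -0.29 to -0.99.

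The same lists were counted for age in females, where 31.8% of all genes passed. Of 15 other lipid hydrolases 2 were higher and 5 lower, with Lpl (1.31 ± 0.17 SE), Pnpla3 (1.27 ± 0.26) and Pnpla2, the adipose triglyceride lipase (-0.69 ± 0.11), changing most. Of 12 VLDL genes 1 was higher and 5 lower, Apoa4 by -1.23 ± 0.15 SE. Of 13 other drug hydrolases 2 were higher and 6 lower. Among 19 CAR and PXR target genes 1 was higher (Cyp2b10, 0.84 ± 0.16 SE) and 8 lower, including Cyp2c54 (-3.08 ± 0.32), Cyp2b13 (-2.67 ± 0.36) and Cyp2c50 (-1.08 ± 0.20). Of 11 lipid droplet genes 1 was higher (Fitm1), of 7 retention genes 2 were higher (Hspa5 and Pdia4), and of 21 nuclear regulators 1 was higher and 2 lower.

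For age in females, 16.8% of all genes were higher and 15% lower. Of the cell type markers, 11 of 12 for macrophages and 8 of 12 for lymphocytes were higher in old females and none was lower. The summed macrophage level was 329 to 482 CPM in young and 533 to 1093 CPM in old vehicle females. Of 12 hepatocyte markers 4 were lower and none higher, and their sum was 119783 to 128151 CPM in young and 107797 to 135834 CPM in old mice. Pericentral markers were lower in 9 of 12 (1 higher), with sums of 8782 to 12938 CPM in young and 5145 to 6538 CPM in old females, and periportal markers were lower in 5 and higher in 2 of 12. Stellate and endothelial markers were higher in 3 and lower in 1 of 12, cholangiocyte markers higher in 2 of 6, and both tested adipose and pancreas markers lower. Of the p53 check genes 4 of 8 were higher in old females, Cdkn1a by 1.68 ± 0.41 SE. Male-biased genes were lower in 8 of 11, and female-biased genes higher in 7 and lower in 7 of 16. The part of cell composition and of zonation in the lower Ces2c, Ces2g and Ces1f was not tested.

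In males none of the 9 members passed with age (edgeR). At an unadjusted p under 0.05 there was 1, against 21.9% of all genes. DESeq2 called 0 members, against 9.52% of all genes, and limma on FPKM called 0. Over all 13755 genes tested, 3.69% passed (2.76% higher and 0.931% lower in old males). Ces2g was at 52.9, 53.4, 29.2 and 28.1 CPM in young and at 53.3, 60.2, 75.6 and 56.7 CPM in old vehicle males. Only the young males 3 and 4 were clearly below the old ones. Old males differed from young ones by 0.60 ± 0.22 SE on the log2 scale (edgeR FDR = 0.149), and with all 6 groups in 1 fit it passed (FDR = 0.0266). No member had groups without overlap, against 13.7% of all genes tested. Ces1b, Ces3a, Ces3b and Ces4a did not pass either. Around them, 1 of 15 lipid hydrolases was higher (Pnpla3, 2.63 on the log2 scale) and 2 of 11 lipid droplet genes were lower (Plin4 and Plin5). Macrophage markers were higher in 4 of 12, lymphocyte markers in 4 of 8, p53 check genes in 2 of 8 and cholangiocyte markers in 1 of 6. Of 19 CAR and PXR targets 2 were higher and 1 lower, and 2 of 10 female-biased and 1 of 13 male-biased genes were higher. Periportal markers were lower in 2 of 12, and hepatocyte and pericentral markers in 1 of 12 each.

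The difference between the sexes in the effect of age was called for 1 of the 9 members, Ces2g, against 3.92% of 14721 genes tested (2.02% with a higher and 1.9% with a lower value in females). Its old minus young log2 fold change was -0.46 in females and 0.60 in males, a difference of -1.05 ± 0.25 SE (edgeR FDR = 0.0296). The call ended without old vehicle female 1 (FDR = 0.0589) or 4 (0.0589), old vehicle male 4 (0.0664), or young vehicle male 3 (0.0501) or 4 (0.0503), with log2 differences of -0.91 to -1.21 over all mice left out in turn. It also ended with the replicate block (FDR = 0.0529) and by limma on log2(FPKM + 0.1) (FDR = 0.0508). Old females were 20 months and old males 24 months of age, so sex and the size of the age gap cannot be told apart here. For Ces2c the difference was -0.96 ± 0.59 SE (edgeR FDR = 0.376).

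**Figure D4:**
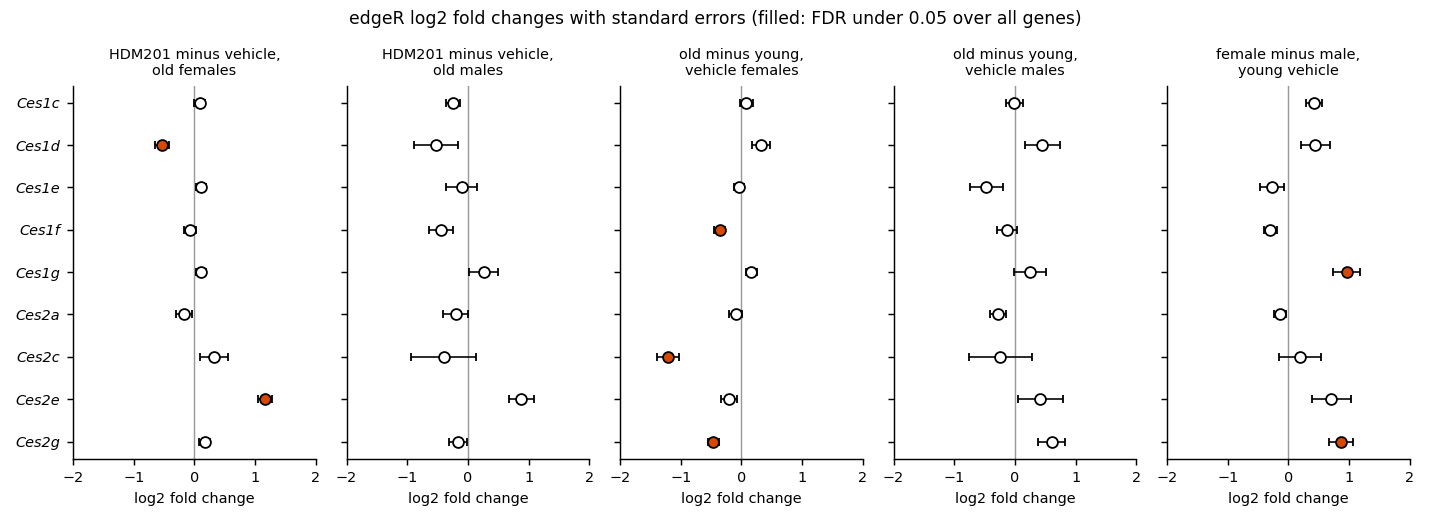
Log2 fold changes (horizontal axes) with standard errors for the 9 carboxylesterases in 5 comparisons, filled where the edgeR FDR over all genes was under 0.05. The filled points are Ces2e (1.16) and Ces1d (-0.53) for HDM201 in old females, Ces2c, Ces2g and Ces1f for age in females, and Ces1g (0.96) and Ces2g (0.87) for sex.

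The third comparison was sex in young vehicle mice, which share age and substrain. Of the 9 members 2 were higher in females (Ces1g and Ces2g), none was lower, and 7 did not pass, against 10.5% of the 13875 genes tested (5.63% higher and 4.91% lower in females). The median log2 fold change of the 9 members was 0.42 and that of all genes 0.00.

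Ces1g (ENSMUSG00000057074.6), an esterase that limits fat storage in liver, was at 390.0, 313, 323, 359.8 and 343 CPM in young females and at 267, 209.6, 112 and 119.6 CPM in young males. Every female was above every male, and males 3 and 4 were the lowest. The means were 346 ± 30.5 (n = 5) and 177 ± 74.4 (n = 4), a log2 difference of 0.96 ± 0.23 SE (edgeR FDR = 0.0201), or 0.82 without young male 4 (FDR = 0.0601). Ces2g, at 68.0 to 88.6 CPM in females and 28.1 to 53.4 CPM in males, was also without overlap (log2 difference 0.87 ± 0.19 SE, FDR = 0.0154).

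Ces1c, at 3328 to 4269 CPM in young females and 2569 to 3205 CPM in young males, had groups without overlap too. Its log2 difference was 0.42 ± 0.13 SE (edgeR FDR = 0.0553, DESeq2 FDR = 0.00369, FDR = 0.00619 with all 6 groups in 1 fit). In all, 3 of the 9 members had groups without overlap, against 12.8% of all genes tested. Ces2e was at 193 to 312 CPM in young females and at 226, 197, 79.1 and 66.2 CPM in young males (log2 difference 0.71 ± 0.32 SE, FDR = 0.179). Ces1e, known as egasyn, which holds beta-glucuronidase in the endoplasmic reticulum, Ces1f and Ces2a had negative log2 differences of -0.14 to -0.30 and did not pass. Ces1d passed only without young male 1 (log2 difference 0.79, FDR = 0.0101).

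Outside the members, Ces3a was 2.43-fold higher in young males, 1238 to 1769 CPM against 509 to 720.3 CPM in females (log2 difference -1.28 ± 0.15 SE, edgeR FDR = 0.000196). Ces1b, Ces3b and Ces4a did not pass. Of the genes in and around the clusters, Lpcat2 was higher in young females (0.84 ± 0.24 SE, edgeR FDR = 0.0414). Gm45724, at a mean of 0.708 CPM, was lower (-2.49 ± 0.54 SE, edgeR FDR = 0.0133). The labelled sexes were matched by lists of genes known for sex bias in liver: 13 of 13 male-biased genes were lower and 13 of 16 female-biased genes higher in young females. The further lists are set against 5.63% of all genes higher and 4.91% lower in young females. Of 21 nuclear regulators 4 were higher and 1 lower in females, among them Cux2, a female-biased repressor (5.78 ± 0.56 SE), and Nr1i3, which encodes CAR (1.05 ± 0.23). Of 19 CAR and PXR targets 5 were higher, of 15 lipid hydrolases 2 (Pnpla3 and Lipc) and of 12 VLDL genes 2, and of 11 lipid droplet genes 2 were lower. Cyp2b9 and Cyp2b13 were on both the CAR and PXR list and the female-biased list. Macrophage markers were higher in 9 of 12, stellate and endothelial markers in 5 of 12, cholangiocyte markers in 2 of 6 and adipose and pancreas markers in 1 of 2, and 2 of 12 hepatocyte markers were lower. The part of these genes in the sex differences was not tested.

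Mice of 1 group differed from each other in many members at once, more so among males. In old HDM201 males, males 4 and 5 were the lowest pair for all 9 members, with mean deviations of -0.44 and -0.57 from the group mean on the log2(CPM + 1) scale and 0.24 to 0.48 for the other 3 mice. In young vehicle males, males 3 and 4 were the lowest pair for 5 of the 9 members, with mean deviations of -0.43 and -0.26. Among females the mean deviation of a mouse ran from -0.12 to 0.11. The hepatocyte marker sums of old HDM201 males 4 and 5 were 116785 and 90763 CPM, against 119666 to 167249 CPM in the other 3, and their macrophage sums were 422 and 897 CPM against 345 to 499.97 CPM.

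After subtraction of group means, 30 of the 36 pairs among the 9 members had a positive Pearson r over the 27 mice (median 0.583). The highest was that of Ces1g and Ces2g (0.806), genes of different clusters, and the pairs of Ces1c with other members were lowest, down to -0.308 with Ces2g. These values are a description, since the mice share libraries with all members. Ces1d varied most of the Ces1 members among males, with a coefficient of variation of 26.9% to 54.9% in the 3 male groups and 9.86% to 18.7% in the 3 female groups.

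**Figure D5:**
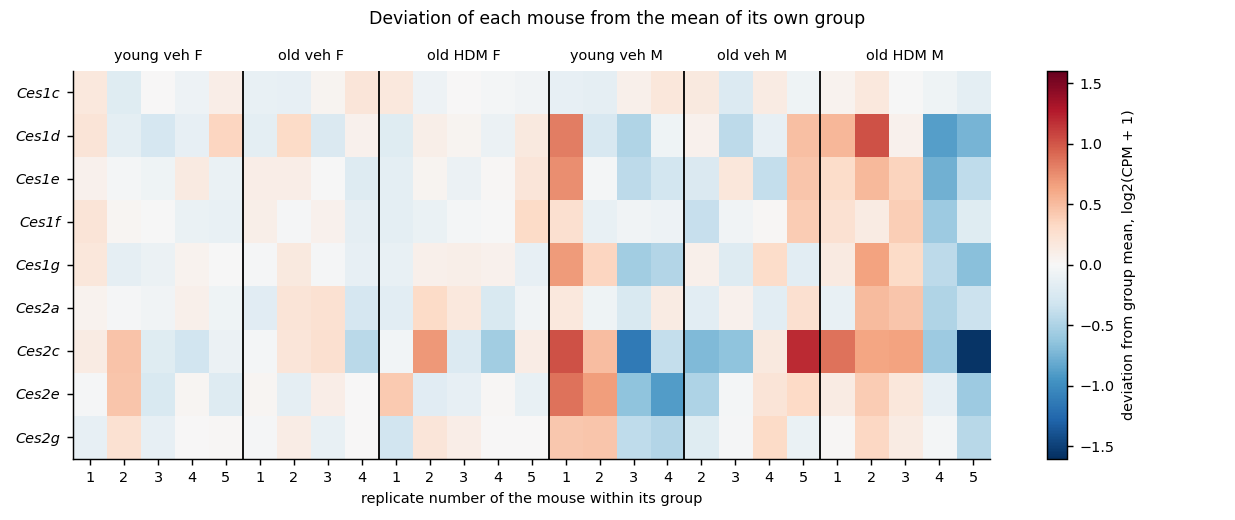
Deviation of each mouse (columns, by group and replicate number) from the mean of its own group, on the log2(CPM + 1) scale, for the 9 carboxylesterases (rows); red is above and blue below the group mean. Males 4 and 5 of the old HDM201 group are blue for all 9 genes (mean deviations -0.44 and -0.57).

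The gene outside the family whose log2(CPM + 1) went most closely with a member over the 27 mice was looked up among 12761 genes with a mean CPM of at least 1. It was Prlr for Ces1c (Pearson r = 0.940), Cyp4v3 for Ces1f (0.911), Vnn3 for Ces1g (0.900) and Gstt1 for Ces2g (0.890). For Ces2c it was Abcd3 (0.878), for Ces1d Sardh (0.860), for Ces1e Aldh5a1 (0.834), for Ces2e Atp9a (0.825) and for Ces2a Cat (0.801). These r values include differences between the groups and are the maximum over all genes, so they are given without a test. With group means subtracted, r for these pairs was between 0.683 (Ces2e and Atp9a) and 0.883 (Ces1d and Sardh).

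The 2 males with FPKM but no counts lay outside the range of their groups for most members. After scaling, young vehicle male 5 was below the other 4 young males for 7 of the 9 members, with Ces1f at 30.9 FPKM against 229 to 289.8 and Ces1e at 11.6 against 50.1 to 112. Old vehicle male 1 was below the other 4 for 5 members and above them for 2, Ces1g (143 against 68.4 to 97.5) and Ces2c (44.1 against 5.81 to 25.2). For Ces2e both were within the range of the other mice of their group. For Ces2a both were below it, at 87.8 against 160 to 206 in old vehicle male 1. In young vehicle male 5 Ces2a was at 72.0 against 177 to 245.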

How the data were processed

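Livers of 29 mice in 6 groups were profiled by poly(A) RNA sequencing. The authors mapped reads to mm10 with STAR, filtered them with SAMtools and counted them per gene with HTSeq, and deposited raw counts for 27 mice. The deposited FPKM values, for 29 mice, were made by the authors with Cufflinks. Tool versions, and whether counting used strand, are not given in the sources used here, so genes that overlap on opposite strands cannot be told apart. Every sample column was mapped to a labelled mouse (0 left over).

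Genes were filtered (filterByExpr, minimum count 10, minimum total 15), scaled by TMM and tested with the edgeR 4.0.16 quasi-likelihood test (R 4.3.3) on the groups compared, with Benjamini-Hochberg adjustment (FDR) over all genes tested and a threshold of 0.05. CPM used TMM-scaled library sizes. The standard error was the absolute log2 fold change over the square root of F. The test was checked on simulated counts. Depth was 16485900 to 23570458 counts per mouse. Alternatives were RLE size factors, DESeq2 1.42.0, no filter, all 6 groups in 1 fit, a block for the replicate number, fits without each mouse in turn, and limma 3.58.1 on scaled log2(FPKM + 1) and log2(FPKM + 0.1). A fold change on such a scale understates low genes. A limma fit on only the mice with counts was added after seeing the data. Tables were made with Python 3.11.15, pandas 2.3.3, numpy 2.4.6 and scipy 1.17.1.

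The members and lists were chosen with earlier results of these data known. Named genes were all members, the other carboxylesterases, up to 3 called genes with the largest change per list, the most alike gene of each member, genes inside the clusters and the 3 nearest tested on each side, except for a gene that is not reported here, and Mdm2, Cdkn1a and Trp53. Of the gene IDs, 54587 were in GENCODE vM21. Each replicate is a separately labelled mouse. The same replicate numbers did not pair the mice.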

Additional observations from a re-analysis of the deposited data

Results flagged for a closer look

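A single mouse stood apart from its group in 2 of the 54 sets of 1 member and 1 group examined by Dixon's criterion, which flags about 1 in 20 by chance. Ces1f was at 599 CPM in young vehicle male 1, against 462 to 481 CPM in the other 3 young males. Without that mouse the sex difference of Ces1f was -0.21 on the log2 scale (edgeR FDR = 0.208), and with it -0.30 (FDR = 0.109). Ces2e was at 597 CPM in old HDM201 female 1, against 395 to 452 CPM in the other 4, and without it the difference from vehicle was 1.04 (edgeR FDR = 0.000415).

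The effect of age on Ces2g differed between the sexes by -1.05 on the log2 scale (females minus males, edgeR FDR = 0.0296). The old minus young value was -0.46 in females and 0.60 in males. The call was lost with the replicate block, by limma on log2(FPKM + 0.1) and without any of 5 single mice (FDR of 0.0501 to 0.0664), and old males were 24 and old females 20 months of age.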

How the results depend on the processing

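Of 832 values for single genes under the alternatives, 781 kept direction and side of the threshold, 17 lost the call, 8 gained one and 26 changed sign, and the cause was not tested. Ces2e in old females kept its call in 17 of 17 alternatives (log2 1.04 to 1.21). The count of called members in old females with HDM201 was 1 (Ces2e alone) with all 6 groups in 1 fit and in each limma fit on FPKM, and 1 to 2 with mice left out in turn. In old males it was 1 (Ces2e) with DESeq2. For age it was 1 in males (Ces2g) with all 6 groups in 1 fit. For sex it was 1 to 3 with mice left out. For sex by age it was 0 with limma on log2(FPKM + 0.1) and 0 to 1 with mice left out. Same-numbered mice did not deviate together (4 of 19 pairs had a correlation over 0.1, range -0.23 to 0.24). With the replicate block the counts were 2 and 0 for HDM201 in females and males, 3 and 0 for age, 2 for sex, and 0 for both interactions, Ces2g then having FDR = 0.0529 for sex by age. Signs changed under limma on log2(FPKM + 1) and log2(FPKM + 0.1) for Ces1e with HDM201 in males (0.12 and 0.12), Ces1e with age in females (0.0063 and 0.0063, and 0.0082 on mice with counts), Ces1f (0.33 and 0.34) and Ces2c (0.67 and 0.76) with age in males, and for sex in Ces1e (0.32 and 0.34), Ces1f (0.33 and 0.34) and Ces2a (0.20 and 0.20). These fits hold the 2 males without counts, except for age in females. With mice left out the log2 values ran from -0.24 to 0.056 (Ces1e) and -0.63 to 0.19 (Ces2c) for HDM201 in males, -0.080 to 0.025 (Ces1e) for age in females, -0.067 to 0.056 (Ces1c) and -0.82 to 0.19 (Ces2c) for age in males, and -0.39 to 0.051 (Ces1e) and -0.076 to 0.62 (Ces2c) for sex. The count over all genes moved more: for HDM201 in females from 758 to 1329 with DESeq2, 208 with all groups in 1 fit, 366 with the block, 226 to 257 with limma and 185 to 956 with mice left out. In males it was 1, against 171 with DESeq2, 22 without the filter, 6 in 1 fit and 0 to 13 with mice left out. For age in males it was 507, against 1309, 968 and 2007 in that order and 29 with the block, 57 to 178 with limma and 144 to 579 with mice left out. For sex it was 1462, against 2483 in 1 fit, 858 with the block, 589 to 886 with limma and 764 to 1864 with mice left out. For sex by treatment it was 16, against 682, 122 and 11, 0 with the block and limma, and 0 to 314. For sex by age it was 577, against 1181 with DESeq2, 183 with the block, 322 to 505 with limma and 207 to 1193. Values of Ces2b and Ces2c were limited by depth and shared sequence.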
